A study of Macaca mulatta with 24 samples.

Results

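The genes described here are used as markers of the macrophages that live in adipose tissue. 10 such genes were named, *CD163*, *MRC1*, *LYVE1*, *CD14*, *CSF1R*, *C1QA*, *C1QB*, *C1QC*, *F13A1* and *MAF*, and each was taken from the row of the raw count table whose Ensembl identifier carried its symbol. 8 of the 10 had such a row among the 32386 rows of the table, and these 8 were among the 15207 genes that passed the filter on low counts. No identifier could be matched to *C1QA* or *C1QB*, which were not analysed here.

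Omental white adipose tissue (WAT), the visceral fat of the abdominal apron, was biopsied from 24 female rhesus macaques and its RNA was sequenced after ribosomal RNA depletion, with 1 library per animal. The controls (*C*) carried cholesterol implants and ate monkey chow, the *T* animals carried testosterone implants and ate chow, the *WSD* animals carried cholesterol implants and ate a high-fat Western-style diet, and the *T* + *WSD* animals had testosterone with that diet. Each group held 6 animals, treatment lasted 3 years, and the labels give an age of 4 years for the animals, while the study's methods give an older age at biopsy. The implants were used to mimic hyperandrogenemia, and the design asks how testosterone and diet act alone and together.

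Resident macrophages sit among the adipocytes and along the vessels of fat, where they clear dying cells, debris and haemoglobin. They depend on signalling through the receptor encoded by *CSF1R*, carry scavenger and endocytic receptors on their surface, and secrete complement proteins. In obesity, other macrophages that handle lipid accumulate in fat, and they can be told from resident cells by different marker genes. In whole tissue, fewer macrophages and less RNA of a gene per macrophage cannot be told apart.

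Total counts per library ran from 6899185 to 28270776, and the lowest count of any of the 8 genes in any library was 105, so that counting error was small beside the differences between animals. In 8 libraries, 2 in each group, a single gene that has no symbol in the name tables, ENSMMUG00000038258, took 9.92% to 54.7% of the counts, against 0.879% to 2.51% in the other 16. *C* replicate 1, 1 of the 8, stood apart in its tissue make-up. Levels are given in CPM, the counts of a gene per 1000000 counts of its library after TMM scaling. Its summed level of 9 mesothelial markers was 38868 CPM, against 2721 to 9744 in the other 5 controls, and its summed level of 10 adipocyte markers was 2234 CPM, against 11590 to 19345. Its 14 general macrophage genes summed to 147 CPM, against 299 to 1430 in the other controls. Fold changes of the 8 genes in *T* + *WSD* against *C*, and most correlations, are therefore also given without this library. Those of *T* and *WSD* against *C* are given without it only for *CD163* and *MAF*.

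None of the 8 genes was called as different between groups in any comparison. A gene was called when edgeR's quasi-likelihood test gave an adjusted p under 0.05 with a fold change over 1.5, or an adjusted p under 0.1 for the interaction. In *T* + *WSD* against *C*, 0 of 8 were called and 0 of 8 had an unadjusted p under 0.05, while 10% of all 15207 genes were called. Of all tested genes, 32.1% had an unadjusted p under 0.05 in that comparison. DESeq2 also called 0 of 8 in this and in each other comparison. The groups overlapped for all 8 genes in every comparison. Of all tested genes, the groups did not overlap for 7.61% in *T* + *WSD* against *C*, 0.401% in *WSD* against *C*, 0.256% in *T* against *C*, 2.84% in *T* + *WSD* against *WSD* and 6.1% in *T* + *WSD* against *T*.

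**Figure D1:**
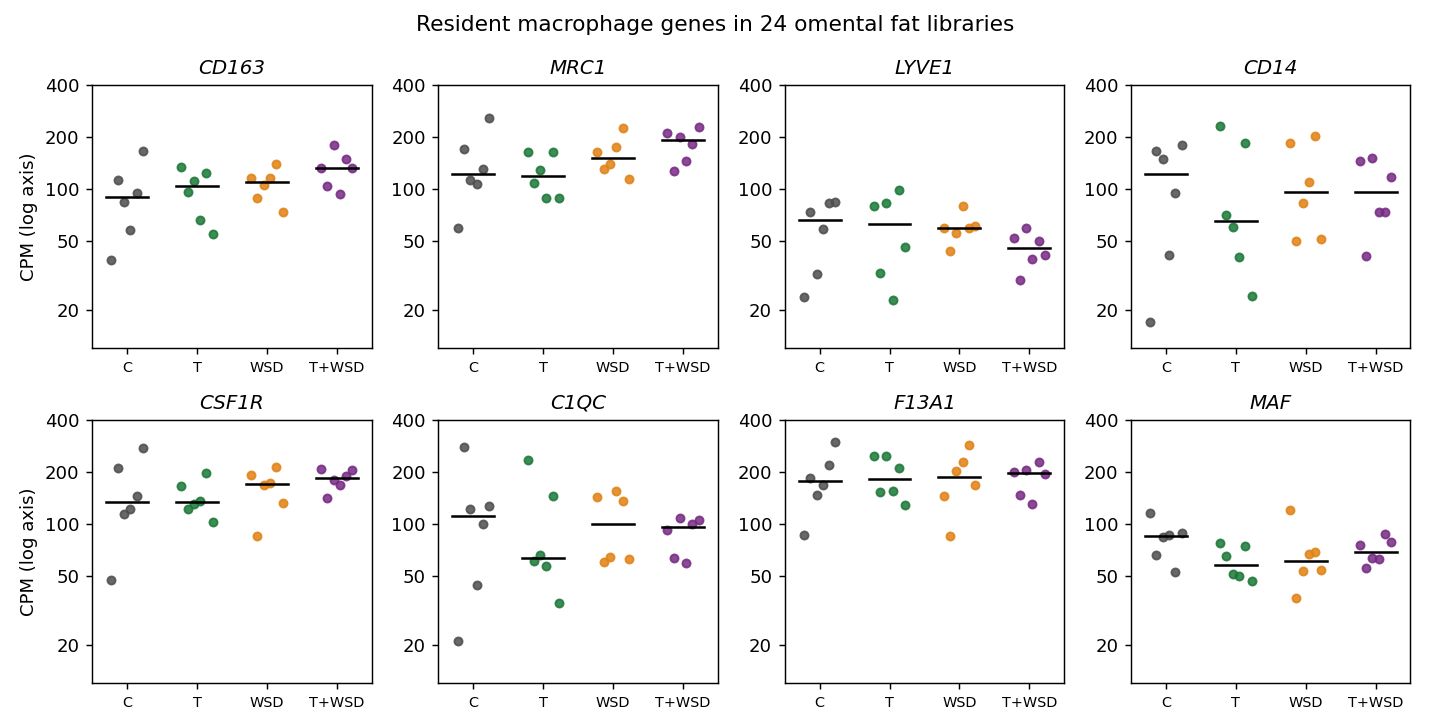
Level of each gene in CPM (log axis) in the 24 libraries, with 1 point per animal in order of replicate number within each group and a bar at the group median. The 4 groups overlap for every gene, and the controls reach from 17.1 to 180 CPM for *CD14* and from 21.1 to 276 CPM for *C1QC*.

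*CD163* encodes the scavenger receptor through which macrophages take up haptoglobin–haemoglobin complexes. In *C* it ranged from 38.8 to 167 CPM with a median of 89.4, and in *T* from 54.7 to 134 CPM with a median of 104. In *WSD* the range was 73.8 to 139 CPM with a median of 110, and in *T* + *WSD* it was 93.1 to 180 CPM with a median of 133. The group medians lay in the order *C*, *T*, *WSD*, *T* + *WSD*, but only 1 of the 6 *T* + *WSD* animals was above every control. The fold of *T* + *WSD* over *C* was 1.43 with a 95% confidence interval of 0.965 to 2.11 (log2 fold change 0.51, SE 0.27, edgeR adjusted p = 0.199). This value turned on single controls. Without *C* replicate 6, the highest control, the log2 fold change was 0.77 and *CD163* was called (edgeR adjusted p = 0.0439), while without *C* replicate 1, the lowest, it was 0.38 (edgeR adjusted p = 0.359). Against *C*, the log2 fold change was 0.20 (SE 0.27) in *WSD* and 0.08 (SE 0.27) in *T*, and without *C* replicate 1 these were 0.051 and −0.073.

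*MRC1* encodes the mannose receptor CD206, an endocytic receptor widely used to mark resident macrophages of fat. Its levels ran from 59.1 to 258 CPM in *C* with a median of 121, and from 88.7 to 164 CPM in *T* with a median of 118. They ran from 115 to 225 CPM in *WSD* with a median of 151, and from 127 to 228 CPM in *T* + *WSD* with a median of 191. All 6 *T* + *WSD* animals fell inside the range of the controls. The log2 fold change against *C* was 0.39 (SE 0.26, edgeR adjusted p = 0.318), which became 0.66 without *C* replicate 6 (edgeR adjusted p = 0.0577) and 0.25 without *C* replicate 1. 4 of the 6 *T* + *WSD* animals were above every *T* animal. That comparison gave a fold of 1.47 with an interval of 1.02 to 2.14 (log2 fold change 0.56, SE 0.26, edgeR adjusted p = 0.175). It was the only value of the 48 gene and comparison pairs with an unadjusted p under 0.05, where 25.9% of all tested genes passed that level and 3.77% were called. Within the 8 libraries rich in ENSMMUG00000038258, 2 per group, *MRC1* was 0.29 higher on the log2 CPM scale in *T* + *WSD* than in *T*, and outside them, with 4 per group, it was 0.71 higher.

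*LYVE1* encodes a hyaluronan receptor of perivascular macrophages that lymphatic endothelium also carries. The *C* animals had 23.7 to 83.5 CPM with a median of 66.2, and the *T* animals 22.7 to 99.2 CPM with a median of 62.6. The *WSD* animals had 44.0 to 79.8 CPM with a median of 59.3, and the *T* + *WSD* animals 29.7 to 59.7 CPM with a median of 45.9. *T* + *WSD* thus had the lowest median for *LYVE1*, whereas it had the highest for *CD163*, *MRC1*, *CSF1R* and *F13A1*, with overlapping groups in each case. 3 of the 6 *T* + *WSD* animals were below every *WSD* animal, and the log2 fold change was −0.39 (SE 0.32, edgeR adjusted p = 0.523). Against *C* it was −0.37 (SE 0.32, edgeR adjusted p = 0.452), or −0.52 without *C* replicate 1, and against *T* it was −0.41 (SE 0.32, edgeR adjusted p = 0.440). Of the 7 lymphatic endothelial genes tested beside it, 1 was called lower in *T* + *WSD* than in *C*. It was *PDPN*, the podoplanin gene, with a log2 fold change of −1.15 (SE 0.27, edgeR adjusted p = 0.00857), and mesothelium also carries podoplanin. With the mean of the mesothelial markers as a covariate the *PDPN* value was −0.39 and was not called. With that covariate 0 of all 15207 genes were called, so the lost call is not particular to *PDPN*. The summed level of the lymphatic list was 164 to 243 CPM in *T* + *WSD* and 185 to 405 CPM in *C*, with no gene of the list at 0 in either group. The part of these cells in the *LYVE1* values was not tested.

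*CD14* encodes the co-receptor that passes lipopolysaccharide to TLR4. It was among the most variable of the 8 genes between animals, from 17.1 to 180 CPM in *C* with a median of 122 and from 24 to 231 CPM in *T* with a median of 65.3. In *WSD* it ranged from 50.2 to 202 CPM with a median of 95.8, and in *T* + *WSD* from 40.7 to 152 CPM with a median of 96.0. The spread inside every group exceeded any shift between groups. The log2 fold change of *T* + *WSD* against *C* was −0.09 with an interval of −1.24 to 1.05, so a 2-fold difference in either direction was within the interval. Without *C* replicate 1 it was −0.30.

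**Figure D2:**
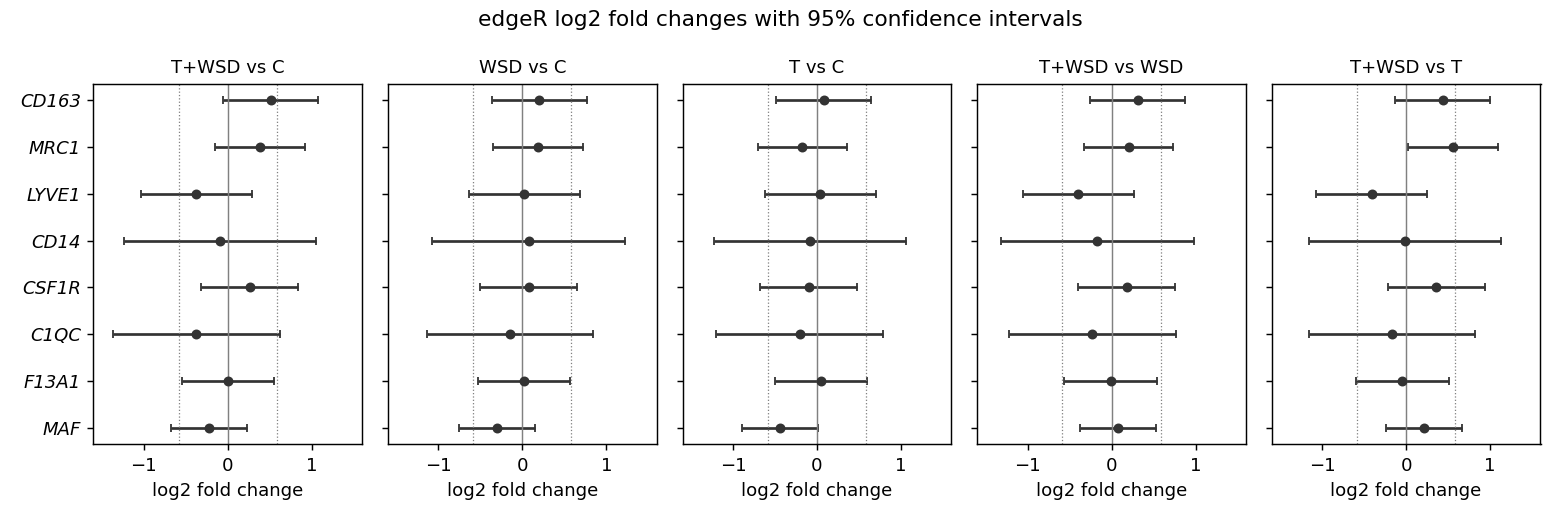
edgeR log2 fold change of each gene in the 5 comparisons between groups, with points for the estimate, bars for the 95% confidence interval and dotted lines at a fold of 1.5 in either direction. The interval leaves out 0 only for *MRC1* in *T* + *WSD* against *T* (0.02 to 1.09), and the widest intervals are those of *CD14* and *C1QC*.

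*CSF1R* encodes the receptor for the growth factors CSF1 and IL-34, on which macrophages depend for survival. The controls ran from 47.3 to 273 CPM with a median of 133 and the *T* animals from 102 to 196 CPM with a median of 133. The *WSD* animals ran from 85.3 to 213 CPM with a median of 170, and the *T* + *WSD* animals from 142 to 209 CPM with a median of 184. *T* + *WSD* animals were close together, with a coefficient of variation of 13.6% against 52.3% in *C*, and all 6 fell within the control range. The log2 fold change against *C* was 0.26 (SE 0.28, edgeR adjusted p = 0.560), and 0.09 without *C* replicate 1.

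Among 5 tested genes for colony-stimulating factors and their receptors, 1 was called in *T* + *WSD* against *C*. *IL34*, which encodes a ligand of the *CSF1R* product, ran from 5.06 to 25.6 CPM in *C* and from 29.1 to 34.9 CPM in *T* + *WSD*, without overlap. Its log2 fold change was 0.98 (SE 0.30, edgeR adjusted p = 0.0287). The call was lost without *C* replicate 1, *C* replicate 3, *T* + *WSD* replicate 9 or *T* + *WSD* replicate 10, where the adjusted p reached 0.0712 and the log2 fold change fell no lower than 0.82. It was also lost in the 16 libraries outside the 8 (log2 fold change 0.92, adjusted p = 0.118) and with the mean of the mesothelial markers as a covariate (log2 fold change 0.50). With that covariate 0 of all 15207 genes were called, so the loss there is not particular to *IL34*.

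*C1QC* encodes a chain of C1q, the recognition protein of the classical complement pathway, which macrophages secrete. In *C* it ranged from 21.1 to 276 CPM with a median of 111, and in *T* from 34.6 to 233 CPM with a median of 63.1. In *WSD* it ranged from 60.0 to 155 CPM with a median of 99.8, and in *T* + *WSD* from 59.0 to 108 CPM with a median of 95.9. *C* held both the lowest and the highest of the 24 values, in replicates 1 and 2. The log2 fold change of *T* + *WSD* against *C* was −0.38 (SE 0.48, edgeR adjusted p = 0.638), which was −0.58 without *C* replicate 1 and 0.12 without *C* replicate 2. 8 further complement genes were tested, of which 1 was called higher and 2 lower in *T* + *WSD* than in *C*. *CD93*, a receptor of endothelial and myeloid cells, had a log2 fold change of 0.95 (SE 0.22, edgeR adjusted p = 0.00796). *C3*, the central complement component, had one of −1.61 (SE 0.41, edgeR adjusted p = 0.0119), and *C1S*, a protease that associates with C1q, one of −0.95 (SE 0.28, edgeR adjusted p = 0.0231). The *C1S* call was lost without *C* replicate 1, *T* + *WSD* replicate 8 or *T* + *WSD* replicate 10 (adjusted p up to 0.0874, log2 fold change no weaker than −0.69). With the mean of the mesothelial markers as a covariate the log2 fold changes were 0.30 for *CD93*, 0.26 for *C3* and 0.24 for *C1S*, and none was called (adjusted p = 0.99997 for each).

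*F13A1* encodes the A chain of coagulation factor XIII, which tissue macrophages and platelets contain. Its range was 85.6 to 298 CPM in *C* with a median of 176, and 128 to 247 CPM in *T* with a median of 182. It was 84.9 to 285 CPM in *WSD* with a median of 186, and 130 to 229 CPM in *T* + *WSD* with a median of 197. The means of the 4 groups, 183, 190, 185 and 184 CPM in *C*, *T*, *WSD* and *T* + *WSD*, differed by far less than the smallest group SD, 37.9 CPM. The fold of *T* + *WSD* over *C* was 1.004 with an interval of 0.686 to 1.47, and without *C* replicate 1 the log2 fold change was −0.12. Platelet genes bear on this gene, and their summed level was low in all groups, from 3.81 to 24.7 CPM over 6 genes, with none of the 6 at 0 throughout a group and 0 of 5 tested called in edgeR (1 with an unadjusted p under 0.05, and 1 called higher in DESeq2).

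*MAF* encodes the transcription factor c-MAF, which macrophages, T cells and other cell types use. In *C* it ran from 52.9 to 116 CPM with a median of 85 and in *T* from 46.8 to 77.7 CPM with a median of 57.8. In *WSD* it ran from 37.1 to 120 CPM with a median of 60.5, and in *T* + *WSD* from 55.7 to 86.9 CPM with a median of 69.0. *MAF* had its highest median in the controls, and 3 of the 6 *T* animals were below every control. The log2 fold change of *T* against *C* was −0.44 with an interval of −0.89 to 0.02 (SE 0.22, edgeR adjusted p = 0.588). Against *C* the log2 fold change was −0.30 in *WSD* (SE 0.22, edgeR adjusted p = 0.466) and −0.22 in *T* + *WSD* (SE 0.22, edgeR adjusted p = 0.516). *C* replicate 1 was the highest control for *MAF*, and without it the values were −0.31 for *T*, −0.18 for *WSD* and −0.081 for the combined treatment. *MAF* also had the largest interaction estimate of the 8 genes, 0.52 on the log2 scale (SE 0.31, edgeR adjusted p = 0.493), or 0.41 without *C* replicate 1.

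In *WSD* against *C* and in *T* against *C*, edgeR called 0 of 8 genes and 0% of all tested genes, where DESeq2 called 238 and 7 genes in all, and the 8 genes held no unadjusted p under 0.05, against 18.5% and 8.62% of all tested genes. In *T* + *WSD* against *WSD*, 0 of 8 were called in edgeR against 0.815% of all tested genes, and 0 of 8 had an unadjusted p under 0.05, against 20% of all. In *T* + *WSD* against *T*, 0 of 8 were called in edgeR against 3.77% of all tested genes. 1 of 8, *MRC1*, had an unadjusted p under 0.05, against 25.9% of all. The interaction of *T* and *WSD*, which tests whether the effect of both treatments together differed from the sum of their separate effects on the log2 scale, called 0 of 8 genes and 0.809% of all tested genes, and 0 of 8 had an unadjusted p under 0.05 against 13.5% of all. The comparisons share animals, so their values are not independent of each other.

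The median log2 fold change of the 8 genes was close to that of all tested genes in *T* + *WSD* against *C*, where both were −0.04. It was 0.05 for the 8 genes and −0.02 for all genes in *WSD* against *C*, and −0.09 and −0.02 in *T* against *C*. It was 0.03 and −0.03 in *T* + *WSD* against *WSD*, and 0.10 and −0.03 in *T* + *WSD* against *T*. The direction of the median difference was not the same in the libraries rich in ENSMMUG00000038258 and in the others for *T* against *C* and *T* + *WSD* against *T*. It also turned in *T* + *WSD* against *C*, though the median outside these libraries was only −0.015. In *T* against *C*, within these libraries, with 2 animals per group, 7 of 8 genes had a higher mean in *T*, with a median difference of 0.56 on the log2 CPM scale. Outside them, with 4 animals per group, 0 of 8 did, with a median difference of −0.24. Against *T*, 3 of 8 genes had the higher mean in *T* + *WSD* within these libraries, with a median difference of −0.16, and 7 of 8 outside them, with a median of 0.44. The widest splits there were those of *CD14*, −0.73 within and 0.80 outside, and *C1QC*, −0.63 and 0.46. Against *C*, 6 of 8 genes had the higher mean in *T* + *WSD* within these libraries and 3 of 8 outside them, with medians of 0.49 and −0.015. In *WSD* against *C* it was 6 of 8 in both, with medians of 0.32 and 0.10, and the difference of *CD14* was 0.86 within and −0.042 outside. For *T* + *WSD* against *WSD* it was 4 of 8 and 5 of 8, with medians of 0.06 and 0.07. *C* replicate 1 is one of the 2 controls within. The mean of the 8 genes, each in SDs from its own mean, was −1.90 in *C* replicate 1 and 0.69 in *C* replicate 2. In the other animals within, it was 0.88 and −0.51 in *T*, 0.63 and −1.04 in *WSD*, and 0.54 and −0.58 in *T* + *WSD*. The differences within these libraries thus rest on 2 animals per group that lay apart in every group, with *C* replicate 1 the lowest. The part of any single animal in them was not tested.

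The differences between animals of one group were larger than those between groups. Across all 24 animals the highest level was 3.24 times the lowest for *MAF*, 4.64 times for *CD163*, 13.1 times for *C1QC* and 13.5 times for *CD14*. Single animals were low or high for most of the genes at once. *C* replicate 1 had the lowest control value for 7 of 8 genes and the highest for the remaining one, *MAF*. *C* replicate 6 had the highest control value for 6 genes. *T* replicate 18 was the lowest *T* animal for 7 genes and *T* replicate 13 the highest for 6, and *WSD* replicate 20 was the lowest *WSD* animal for 6 and *WSD* replicate 23 the highest for 5.

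**Figure D3:**
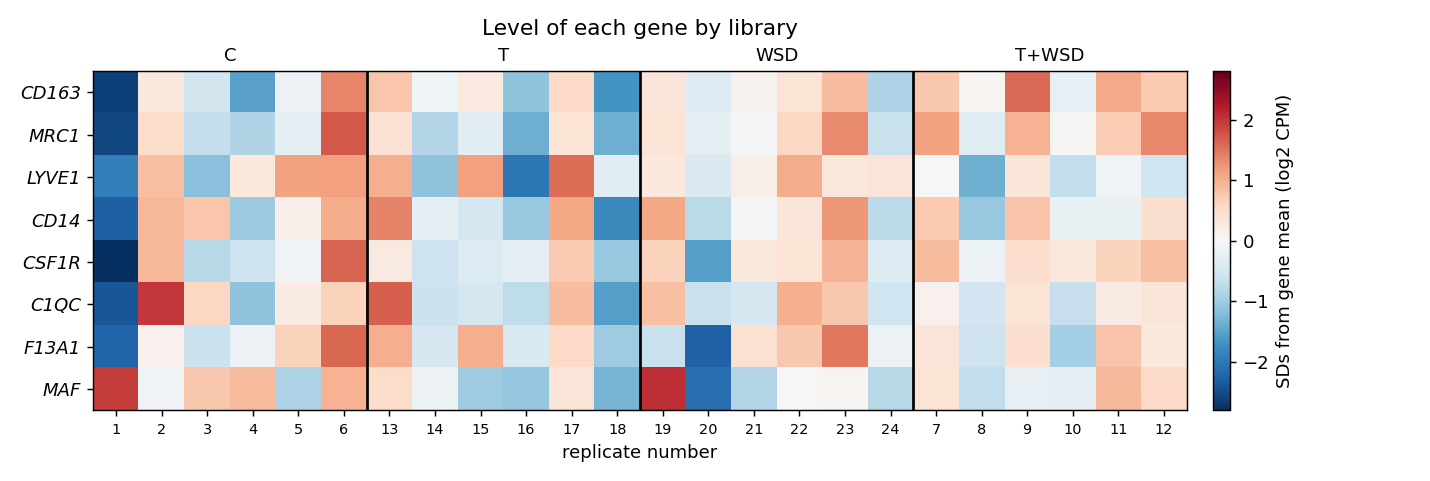
Level of the 8 genes (rows) in the 24 libraries (columns, by group and replicate number), coloured by the number of SDs of log2 CPM from the mean of each gene. Whole columns share a colour, such as *C* replicate 1, which is lowest among controls for 7 genes, and *MAF* departs from the others there.

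The SD of log2 CPM was smaller in *T* + *WSD* than in *C* for 8 of 8 genes, and for 8 of 8 also without *C* replicate 1. For *CSF1R* it was 0.21 in *T* + *WSD* against 0.87 in *C*, or 0.54 without that library. For *C1QC* it was 0.38 against 1.30, or 0.94. A smaller SD in *T* + *WSD* than in *C* was general in these libraries and was seen for 74% of all tested genes, or 66.1% without *C* replicate 1.

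Over all 24 libraries, the genes other than *MAF* rose and fell together. These correlations describe 24 libraries that share depth and scaling, and the group differences are part of them. Over the 21 pairs without *MAF*, Pearson r of log2 CPM ran from 0.54 to 0.93 with a median of 0.74, and without *C* replicate 1 from 0.41 to 0.90 with a median of 0.64. The closest pairs were *CD163* with *MRC1* (0.93) and *CD14* with *C1QC* (0.91), with 0.93 and 0.92 when the group means were taken out and 0.90 and 0.89 without *C* replicate 1. *LYVE1* was more loosely tied to the other genes, with r of 0.62 to the mean of the remaining 7, against 0.77 to 0.89 for *F13A1*, *C1QC*, *CD163*, *CSF1R*, *MRC1* and *CD14*. Without *C* replicate 1 it was 0.53, against 0.70 to 0.86 for those 6 and 0.55 for *MAF*.

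*MAF* had r of 0.01 to 0.29 with each of the other 7 genes, and 0.15 with their mean. This rested on 1 library. Without *C* replicate 1 the r of *MAF* with the mean of the others was 0.55, with 0.21 to 0.61 for single genes, and without that library its r with the mean of 14 general macrophage genes was 0.63, against 0.29 with it. Among all 19 lists, the r of *MAF* in 24 libraries was highest with T and NK cell markers, 0.57. Without *C* replicate 1 it was 0.63 both with these markers and with general macrophage genes. The lowest r was with adipocyte markers, −0.53 in 24 libraries and −0.37 without *C* replicate 1. The 5 T and NK cell genes summed to 5.37 to 25.9 CPM over all animals, and their part in the *MAF* values was not tested.

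**Figure D4:**
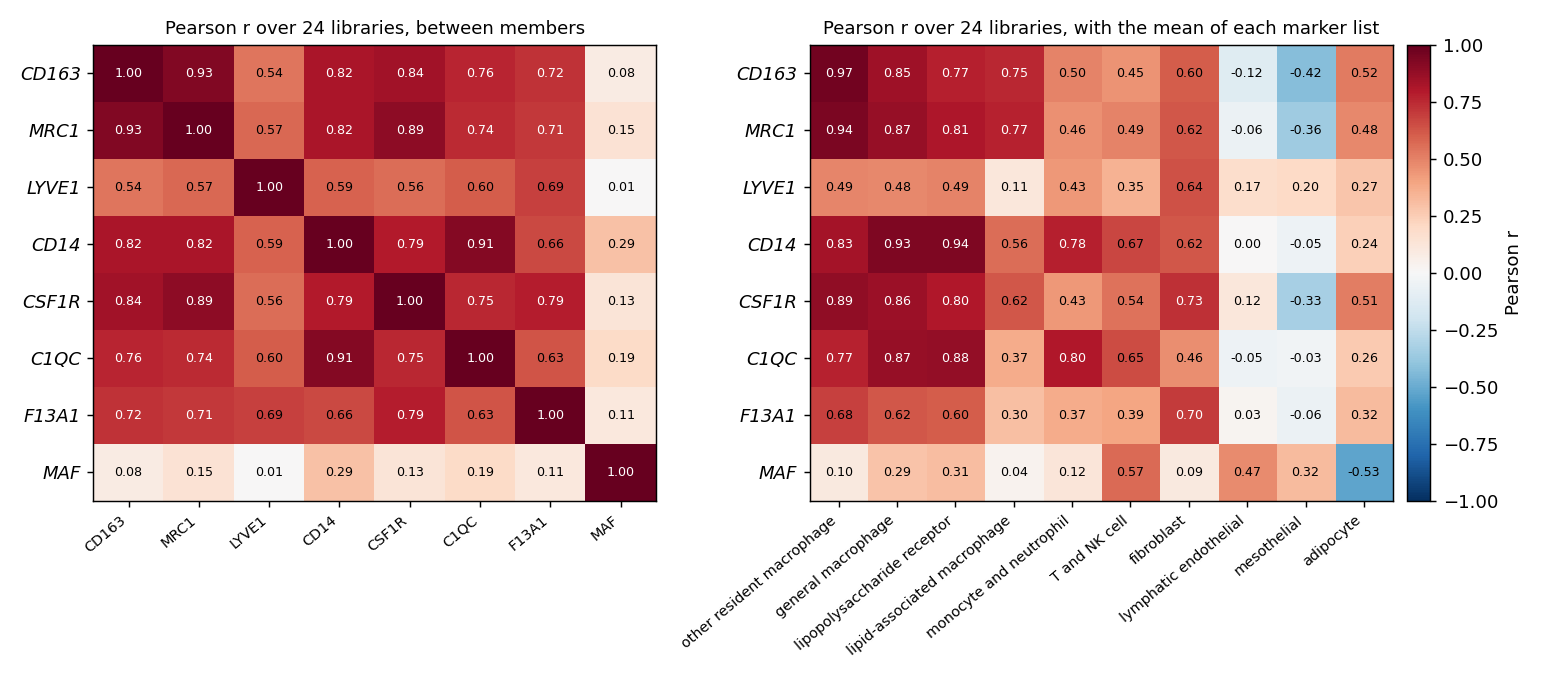
Pearson r of log2 CPM over 24 libraries, between the 8 genes (left) and between each gene and the mean log2 CPM of 10 lists of marker genes (right). *CD163* and *MRC1* are closest to the other resident macrophage genes (0.97 and 0.94). *CD14* and *C1QC* are about equally close to the lipopolysaccharide receptor genes (0.94 and 0.88) and the general macrophage genes (0.93 and 0.87). *MAF* has 0.01 to 0.29 with the other 7 genes (0.21 to 0.61 without *C* replicate 1). It has 0.57 with T and NK cell markers and −0.53 with adipocyte markers. Without *C* replicate 1 *MAF* has 0.63 with T and NK cell markers, 0.63 with general macrophage genes and −0.37 with adipocyte markers.

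The gene whose level followed the mean of the 8 standardized genes most closely, out of 12609 others with a symbol, was *CD4* (r = 0.94), which encodes a receptor that primate macrophages carry as well as helper T cells. *NCKAP1L* (0.93), *C5AR1* (0.93), *LRRC25* (0.92), *VAV1* (0.91), *TLR4* (0.91), *FCER1G* (0.91) and *TYROBP* (0.91) came next. They encode an actin regulator of blood cells, the C5a receptor, a leukocyte membrane protein, a signalling protein of blood cells, the lipopolysaccharide receptor and a pair of adaptors of myeloid receptors. With the group means taken out, *CD4* (0.95), *NCKAP1L* (0.93) and *C5AR1* (0.93) again led, followed by *CMKLR1*, *LRRC25*, *VAV1*, *ALOX5* and *TYROBP*. Without *C* replicate 1, r of the 8 genes that led over all 24 libraries was 0.88 to 0.94, and that of *CMKLR1* and *ALOX5* was 0.84 each. The 8 other resident macrophage genes followed the mean to unequal degrees, from 0.44 for *MERTK* to 0.89 for *VSIG4* and *FOLR2*, and 0.16, 0.85 and 0.85 for these 3 without *C* replicate 1.

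The tie of the set to macrophages was checked against the 14 general macrophage genes. These genes do not tell resident macrophages from other macrophages. Whether the set followed resident cells in particular was therefore not tested. With the mean of the 14 genes, r was 0.85 to 0.93 for *CD163*, *MRC1*, *CD14*, *CSF1R* and *C1QC*. It was 0.62 for *F13A1*, 0.48 for *LYVE1* and 0.29 for *MAF*. Without *C* replicate 1 these were 0.79 to 0.91, 0.50, 0.35 and 0.63. *LYVE1* and *F13A1* had higher r with the mean of 7 fibroblast markers, 0.64 and 0.70, or 0.56 and 0.63 without *C* replicate 1. The levels of *LYVE1* and *F13A1* thus followed fibroblast markers at least as closely as general macrophage genes. A tie to fibroblast markers was not particular to them. Its r was 0.73 for *CSF1R*, 0.62 for *CD14* and *MRC1*, 0.60 for *CD163*, 0.46 for *C1QC* and 0.094 for *MAF*. Without *C* replicate 1 it was 0.66 for *CSF1R*, 0.53 for *CD14*, 0.51 for *MRC1*, 0.49 for *CD163*, 0.31 for *C1QC* and 0.33 for *MAF*. With other resident macrophage genes, *LYVE1* and *F13A1* had r of 0.49 and 0.68, or 0.32 and 0.55 without *C* replicate 1. With the group means taken out these were 0.68 and 0.77, against 0.68 and 0.70 with fibroblast markers. The part of fibroblasts in the levels of these genes was not tested.

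Ties to other lists differed between the 8 genes. *CD163* and *MRC1* had r of 0.75 and 0.77 with lipid-associated macrophage genes, against 0.11 for *LYVE1* and 0.30 for *F13A1*. With the group means taken out these were 0.69, 0.72, 0.33 and 0.39, and without *C* replicate 1 they were 0.69, 0.71, −0.069 and 0.13. *CD14* and *C1QC* had r of 0.78 and 0.80 with monocyte and neutrophil markers, against 0.37 to 0.50 for *CD163*, *MRC1*, *LYVE1*, *CSF1R* and *F13A1*. With the group means taken out, *CD163* (0.78), *MRC1* (0.74) and *CSF1R* (0.62) were nearer to *CD14* (0.87) and *C1QC* (0.86), while *LYVE1* and *F13A1* stayed at 0.40 and 0.41. Without *C* replicate 1, *CD14* and *C1QC* had 0.75 and 0.78 and the other 5 had 0.25 to 0.40. *LYVE1* had r of 0.17 with lymphatic endothelial genes and 0.49 with other resident macrophage genes, or 0.21 and 0.32 without *C* replicate 1.

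Ratios between genes of one library do not depend on its size, and they were examined after the values had been seen, as a description with no test. Their size depends on the lengths of both genes, so only differences between libraries are described. Of the 28 pairs of genes, 1 had ratios that did not overlap between *T* + *WSD* and *C*, 1 between *T* + *WSD* and *WSD*, 2 between *T* + *WSD* and *T*, and 0 in the 2 remaining comparisons. The ratio of *CD163* to *F13A1* was 0.650 to 0.875 in *T* + *WSD*, 0.346 to 0.611 in *C* and 0.426 to 0.636 in *T*. The *WSD* ratios, 0.438 to 1.04, overlapped those of *T* + *WSD*. The ratio of *CD163* to *LYVE1* was 2.37 to 3.5 in *T* + *WSD* and 1.21 to 2.33 in *WSD*, but 0.983 to 2.59 in *C* and 1.19 to 2.94 in *T*. The ratio of *MRC1* to *F13A1* was 0.798 to 1.17 in *T* + *WSD* and 0.524 to 0.775 in *T*.

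Such separation was found for other genes as well. The shares that follow are only for the denominators of the pairs that had separated. No share over all pairs of genes was computed, so the counts of pairs have no background. Ratios to *F13A1* did not overlap between *T* + *WSD* and *C* for 1.89% of all tested genes, and between *T* + *WSD* and *T* for 1.01%. Ratios to *LYVE1* did not overlap between *T* + *WSD* and *WSD* for 2.81% of them. In the 8 libraries rich in ENSMMUG00000038258 the *CD163* to *F13A1* ratio was 0.670 to 0.708 in *T* + *WSD* and 0.454 to 0.611 in *C*, and in the other 16 it was 0.650 to 0.875 and 0.346 to 0.573. The 2 high *WSD* ratios, 0.797 and 1.04, were both within the 8.

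**Figure D5:**
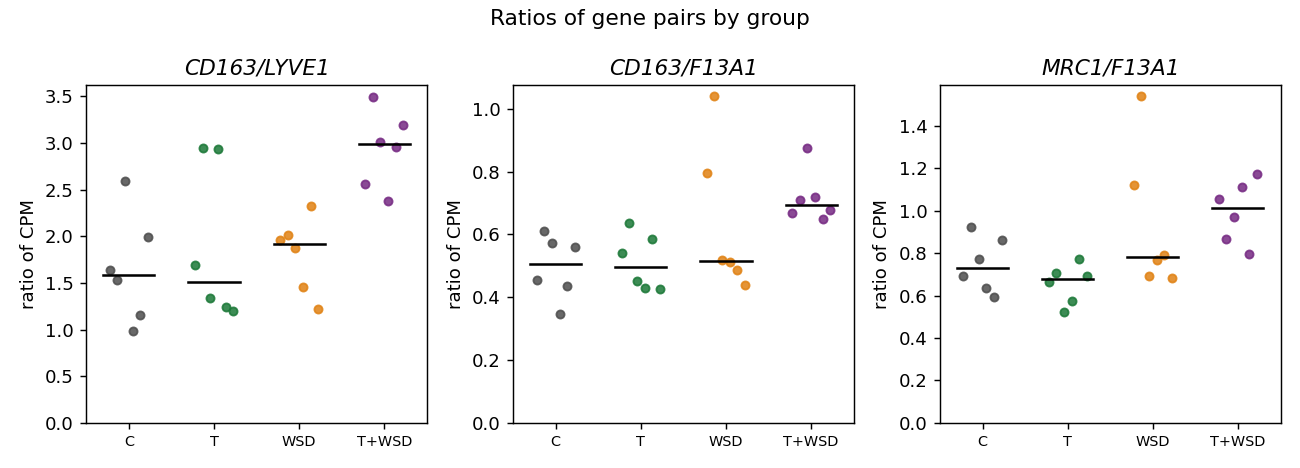
Ratio of the CPM of *CD163* to *LYVE1*, *CD163* to *F13A1* and *MRC1* to *F13A1* in each library, by group, with a bar at the group median. Only pairs that separated in some comparison, out of 28, are drawn. The *T* + *WSD* ratios of *CD163* to *F13A1* (0.650 to 0.875) lie above all *C* ratios (0.346 to 0.611), and those of *CD163* to *LYVE1* (2.37 to 3.5) above all *WSD* ratios (1.21 to 2.33).

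Genes of other macrophage states and partners were not uniform in *T* + *WSD* against *C*, where 4.72% of all tested genes were called higher and 5.29% lower. Of 8 other resident macrophage genes, 3 were called higher and 0 lower, with a list median log2 fold change of 0.57. *CD209*, a lectin of macrophages and dendritic cells, ran from 3.48 to 16.1 CPM in *C* and from 14.7 to 30.2 CPM in *T* + *WSD* (log2 fold change 1.31, SE 0.36, edgeR adjusted p = 0.0161). *STAB1*, a scavenger receptor of macrophages and sinusoidal and other endothelium, ran from 118 to 612 CPM in *C* and from 563 to 772 CPM in *T* + *WSD* (log2 fold change 0.98, SE 0.27, edgeR adjusted p = 0.0177). *CD163L1*, a relative of *CD163*, had a log2 fold change of 0.69 (SE 0.21, edgeR adjusted p = 0.0286). The *CD163L1* call was lost without *C* replicate 1, *C* replicate 3, or *T* + *WSD* replicate 9, 10 or 12 (adjusted p up to 0.0719, log2 fold change no lower than 0.58). In the 16 libraries outside the 8, none of these 3 was called (adjusted p from 0.142 to 0.220), with log2 fold changes of 1.09 for *CD209*, 0.76 for *STAB1* and 0.59 for *CD163L1*, where edgeR called 78 genes in all against 1522 in the 24.

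Of 14 general macrophage genes, 0 were called in edgeR or DESeq2 and 0 had an unadjusted p under 0.05. Their summed level was 147 to 1430 CPM in *C* and 439 to 1189 CPM in *T* + *WSD*, with no gene at 0 throughout a group. Of 10 lipid-associated macrophage genes, 6 were called higher and 2 lower, led by *CHIT1*, which encodes chitotriosidase. *CHIT1* ran from 0.112 to 79.2 CPM in *C* and from 139 to 1224 CPM in *T* + *WSD* (log2 fold change 4.33, SE 1.13, edgeR adjusted p = 0.0136). Of 7 haemoglobin and haem handling genes, 2 were called higher, led by *FTL*, the ferritin light chain gene (log2 fold change 0.98, SE 0.14, edgeR adjusted p = 0.00226). Of 5 monocyte and neutrophil genes, 3 were called lower, led by *S100A9* (log2 fold change −3.08, SE 0.88, edgeR adjusted p = 0.0206). Of 4 dendritic cell genes, 1 was called higher, *CLEC10A* (log2 fold change 1.51, SE 0.37, edgeR adjusted p = 0.0107).

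Of 10 macrophage transcription factor genes 1 was called higher and 0 lower, and of 6 lipopolysaccharide receptor genes 0 were called in edgeR or DESeq2, with 0 at an unadjusted p under 0.05. Lists for T and NK cells, for B lineage cells and for erythroid cells had 0 calls in edgeR or DESeq2 among 5, 4 and 3 genes, and 0 at an unadjusted p under 0.05. Endothelial genes had 4 of 8 called higher, adipocyte genes 1 of 10 and fibroblast genes 1 of 7, with 0 called lower in each.

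Mesothelial genes had 8 of 9 called lower in *T* + *WSD* than in *C*. Their summed level was 235 to 3068 CPM in *T* + *WSD*, 707 to 5973 in *WSD*, 2782 to 17557 in *T* and 2721 to 38868 in *C*, with no marker at 0 throughout a group. The 8 resident genes had r between −0.42 (*CD163*) and 0.32 (*MAF*) with the mean of these markers, or −0.30 and 0.21 without *C* replicate 1, where *LYVE1* had the highest, 0.39. With that mean as a covariate, edgeR called 0 of the 8 genes and 0 of all 15207, and 0 of the 8 and 488 of all had an unadjusted p under 0.05. With the mean of the general macrophage genes as a covariate, 0 of 8 were called and 3 of 8 had an unadjusted p under 0.05 in edgeR, as had 4743 of all 15207 genes. *CD14* then had a log2 fold change of −0.51 (adjusted p = 0.0936), *C1QC* one of −0.53 (adjusted p = 0.117) and *CD163* one of 0.35 (adjusted p = 0.140). The part of cell make-up in these values was not tested further.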

How the data were processed

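RNA-seq libraries of 24 animals in 4 groups of 6 were analysed. The authors trimmed reads with Trimmomatic 0.36, aligned them to rheMac8 with STAR 2.5.2b (tool versions per the submitters' processing notes) and deposited raw counts per Ensembl gene, without normalization. The counting tool, its strand setting and the annotation version are not given in the sources used here. Symbols matched 17621 of 32386 identifiers in a gene name table, and 222 more came from the study's supplementary tables. Where identifiers shared a symbol, the one with most counts was used. Groups came from the sample labels.

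Genes were kept by filterByExpr (at least 10 counts) and scaled by TMM. All 24 libraries were fitted in 1 model with edgeR 4.0.16 (R 4.3.3) by the robust quasi-likelihood test, with Benjamini-Hochberg adjustment over 15207 genes. A call required a fold over 1.5 with an adjusted p under 0.05, or for the interaction an adjusted p under 0.1. CPM were computed from TMM-scaled library sizes, and log2 CPM with a prior count of 2. The test was checked on simulated data. Alternatives were DESeq2 1.42.0, other scalings, filters and dispersion settings, covariates, fewer groups and leaving out each library. None of the 60 within-group pairs of libraries was identical.

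The 10 genes and the 19 lists were chosen with earlier results of these data known. Genes of the lists are named only if called, those with the largest changes first and at most 4 per list, and the 8 genes most like the set by Pearson r. Bisulfite data were not used here.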

Additional observations from a re-analysis of the deposited data

How the results depend on the processing

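The count of called genes was 0 of 8 in each comparison under every alternative except 1. In *T* + *WSD* against *C* it ranged from 0 to 1 when libraries were left out in turn, with *CD163* called without *C* replicate 6. No paired analysis was possible because the replicate numbers run from 1 to 24 and no 2 groups share one. In *T* + *WSD* against *C*, with the mesothelial mean as covariate, the log2 fold changes turned to 0.38 for *CD14*, −0.031 for *F13A1*, 0.40 for *MAF*, 0.26 for *C3* and 0.24 for *C1S*. That of *F13A1* was also −0.011 with no filter on low counts, −0.11 in the 16 libraries outside the 8 and −0.16 with the general macrophage mean as covariate. *CD163* in *T* against *C* was −0.18 in the 16 libraries. Over the libraries left out in turn, *T* + *WSD* against *C* ran from −0.30 to 0.11 for *CD14*, −0.12 to 0.20 for *F13A1* and −0.58 to 0.12 for *C1QC*, and *CD163* in *T* against *C* from −0.073 to 0.34. The covariate settings bear on cell make-up, and the cause of these turns was not tested. Of 296 values of the 8 genes per comparison over all settings, 18 turned direction in *T* + *WSD* against *C*, 24 in *WSD* against *C*, 27 in *T* against *C*, 18 in *T* + *WSD* against *WSD* and 22 in *T* + *WSD* against *T*, and 31 of 288 did in the interaction. For each comparison of 2 groups, the settings include leaving out animals of the other 2 groups, which hardly moved the values. The shares that turned are low in part for this reason. With 6 animals per group, precision was limited by the differences between animals, and the 95% confidence interval of the fold of *T* + *WSD* over *C* was 0.423 to 2.07 for *CD14* and 0.387 to 1.54 for *C1QC*. Calls over all genes in that comparison fell from 1522 to 78 in the 16 libraries and to 0 with the mesothelial mean as covariate. In the 16 libraries 11 of the 12 list genes given with values lost their call, all but *FTL*, with log2 fold changes such as −3.11 for *S100A9*, 1.46 for *CLEC10A*, −1.01 for *PDPN* and 0.92 for *IL34*. With the covariate all 12 did. In the fit of only the 2 groups compared, *STAB1* (log2 fold change 0.98, adjusted p = 0.0543) and *CD163L1* (0.69, adjusted p = 0.0801) also lost theirs at the same fold changes, and *CD163L1* did with no filter on low counts (adjusted p = 0.0528).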
